A study of Mus musculus with 8 samples.

Results

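Nxph3-Sntb1 excitatory neurons were a small population of hippocampal nuclei, 168 of 11518 kept nuclei. They held RNA of at least 4 of 9 genes, among them Nxph3 and Sntb1. In each, at most 1 UMI of Prox1 and at most 1 of 3 CA1 genes were detected. They were chosen by a rule on unique molecular identifiers (UMIs, single captured RNA molecules). A nucleus had to have a UMI of at least 4 of 9 genes (Rai14, Nxph3, Cwh43, Sntb1, Adgrd1, Skap1, Pamr1, Crybg1 and Clic5) and at least 1 UMI of the vesicular glutamate transporters Slc17a7 or Slc17a6. It could hold at most 1 UMI of Prox1, at most 1 of Gad2, and at most 1 of the CA1 genes Fibcd1, Wnt2 and Gm10754 could be detected. They were compared with the other 5403 excitatory nuclei, and where stated with all other kept nuclei. Because RNA chose these nuclei, their RNA is described here without a test. The chromatin of the same nuclei and the differences between diets were not part of the rule and were tested.

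Glutamatergic neurons of the hippocampal formation lie in the CA fields, the dentate gyrus and the adjoining subicular and cortical areas, and each area is told apart by transcription factors, adhesion molecules and channels rather than by transmitter genes. Nxph3 encodes neurexophilin 3, a secreted ligand of presynaptic alpha-neurexins. Sntb1 encodes beta-1-syntrophin, an adapter that ties channels and signalling proteins to the dystrophin complex. Rai14 encodes an actin-binding ankyrin-repeat protein, Cwh43 a protein that remodels the lipid of GPI anchors, Adgrd1 an adhesion G protein-coupled receptor, and Skap1 an adapter of Src-family kinase signalling.

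Nuclei came from the hippocampus of male wild-type pups at postnatal day 21, born to C57BL/6J dams. They were profiled with a single-nucleus multiome assay that reads RNA and open chromatin (ATAC) of the same nucleus. The dams were at least 8 weeks old at the start. They ate a diet with folic acid (FA) at 2 mg/kg (control, MF) or 20 mg/kg (excess, HF). The diets ran from 2 weeks before mating until the end of lactation. Each diet had 2 libraries, MF1, MF2, HF1 and HF2, which the study calls biological replicates. How many pups or litters stood behind a library was not stated in the sources used here. The p-values of tests without a block measure the spread between these libraries. With library as a block, they measure the spread of within-library differences.

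The 4 libraries gave 35, 25, 52 and 56 Nxph3-Sntb1 nuclei (MF1, MF2, HF1, HF2), with 373340 to 906615 UMIs and 686040 to 1444382 ATAC counts per library. No barcode of these nuclei occurred in more than 1 library, against 76 barcodes among all kept nuclei. The median depth was 13580 UMIs, against 8968 in other excitatory nuclei. The rule depends on depth, since only 13 nuclei still met it after nuclei were thinned to 3000 UMIs. Thinning left out 2823 kept nuclei with fewer UMIs, while all 168 Nxph3-Sntb1 nuclei had enough. Of the 168 nuclei, 148 fell in a single cluster of 379 nuclei, called the main cluster here, and the other 20 were spread over 10 clusters. Of these, 10 lay in clusters called mixed because their median Scrublet doublet score was over 0.05. Another 3 lay in an inhibitory cluster, 3 with CA3-like nuclei and 1 in a vascular and leptomeningeal cluster. The name of the population thus does not hold for each of its nuclei. A Scrublet doublet score over 0.05 was found in 16 nuclei, of which 12 came from HF2, 3 from MF1, 1 from HF1 and 0 from MF2. That is 9.52%, against 15.3% of all kept nuclei. In other excitatory nuclei it was 5.3 to 6.7% by library, but the mixed clusters were left out of that set by this same score.

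Sntb1 reached 251, 268, 242 and 336 CPM (UMIs scaled to 1e6 per summed library) in MF1, MF2, HF1 and HF2, against 6.39, 11.8, 6.75 and 13.7 CPM in other excitatory nuclei. Nxph3 was at 124, 45.5, 55.3 and 36.4 CPM, against 4.26, 2.25, 2.38 and 2.69 CPM. MF1 stood highest for Nxph3, and no library of either gene overlapped between the 2 kinds of nuclei. Rai14 lay between 133 and 220 CPM against 14.5 to 19.2 CPM, and Cwh43 between 58.9 and 106 CPM against 4.72 to 8.15 CPM. Pamr1, a secreted protein with a peptidase-like domain, lay between 133 and 153 CPM against 4.33 to 6.63 CPM. These are the genes of the rule, so their contrast is given by the choice of nuclei.

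**Figure D1:**
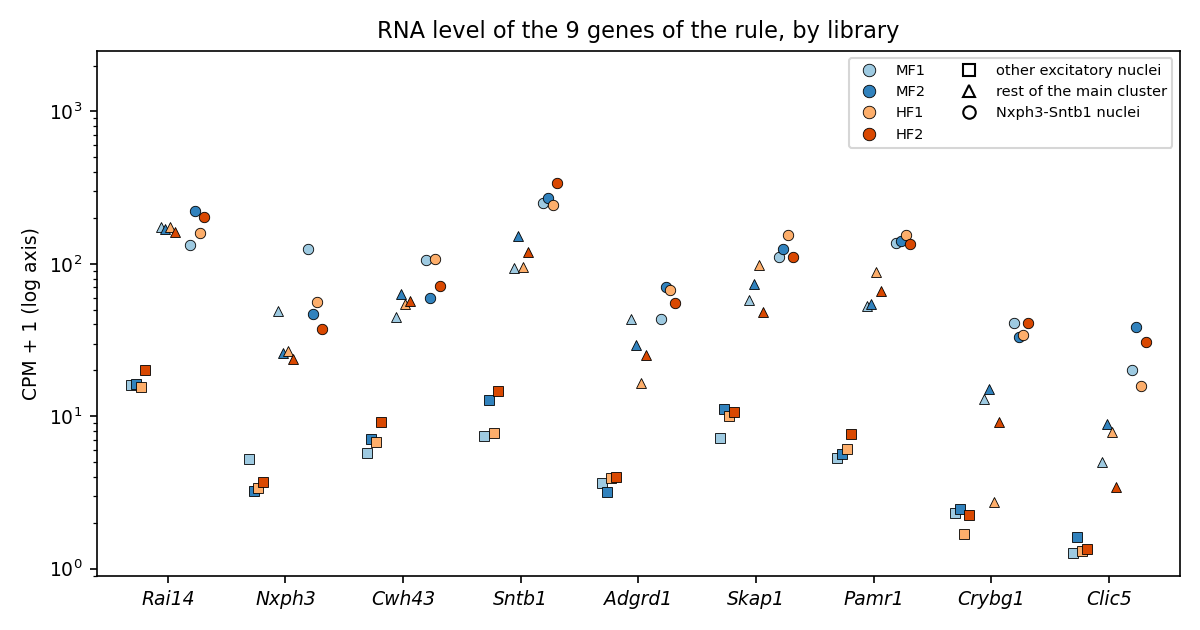
RNA level (CPM + 1, log axis) of the 9 genes of the rule in each library, for Nxph3-Sntb1 nuclei (circles), the other nuclei of the main cluster (triangles) and other excitatory nuclei (squares). For Sntb1 the circles lie from 242 to 336 CPM, the triangles from 93.3 to 151 CPM and the squares from 6.39 to 13.7 CPM.

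The number of rule genes per nucleus fell off without a gap at the limit of the rule. Among nuclei that met the other criteria, 79 had 3 of the 9 genes, 54 had 4, 40 had 5, 43 had 6, 18 had 7, 13 had 8 and 0 had all 9. Of the nuclei with 3 genes, just outside the rule, 68.4% lay in the main cluster, against 83.3% of those with 4. The 231 other nuclei of the main cluster had Rai14 at 160 to 175 CPM, overlapping the 133 to 220 CPM of the Nxph3-Sntb1 nuclei. Their Sntb1 was lower in all 4 libraries, from 93.3 to 151 CPM, yet far above the 6.39 to 13.7 CPM of the whole set of other excitatory nuclei, which includes them. A UMI of Rai14 was seen in 89.3% of Nxph3-Sntb1 nuclei, 8.92% of other excitatory nuclei and 0.459% of oligodendrocyte-like nuclei, at median depths of 13580, 8968 and 4747 UMIs. Nxph3 was seen in 55.4, 2.42 and 1.68% of the same 3 sets, so a good part of the Nxph3-Sntb1 nuclei had no Nxph3 UMI. Thinning to 3000 UMIs was possible for all 168, 4848 of 5403 and 577 of 653 nuclei of these sets. In the thinned nuclei Rai14 was seen in 39.3, 4.33 and 0.347% and Nxph3 in 18.5, 0.805 and 0.867%. For Nxph3 the other excitatory nuclei thus did not lie above the oligodendrocyte-like nuclei. Oligodendrocyte-like nuclei, which should lack both genes, were taken as a rough guide to free RNA. Free RNA itself was not measured, and its level in the other 2 sets is not known.

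Nxph3-Sntb1 nuclei made up 1.21% of kept nuclei in MF1 (95% exact binomial interval 0.842 to 1.68%), 1.11% in MF2 (0.721 to 1.64%), 1.5% in HF1 (1.12 to 1.96%) and 1.93% in HF2 (1.46 to 2.50%). The intervals cover counting error only. The share was 1.16% ± 0.0677 in MF and 1.72% ± 0.308 in HF (SD, n = 2 each), a difference of 0.556 percentage points, and the diets did not overlap. The exact two-sided permutation test gave p = 0.3333, the smallest that 2 against 2 libraries allow. Without HF2 the difference was 0.338 points. Without the group of 52 nuclei described later, an alternative chosen after seeing the data, it was 0.201 points. Without nuclei over the doublet score the shares were 1.29, 1.33, 1.72 and 1.81%. The whole main cluster, whose border does not rest on the rule, held 3.04, 3.07, 2.65 and 4.49% of kept nuclei, so there the diets overlapped and HF1 was lowest. After thinning to 3000 UMIs, which left out kept nuclei with fewer, the difference changed sign, on 13 nuclei.

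**Figure D2:**
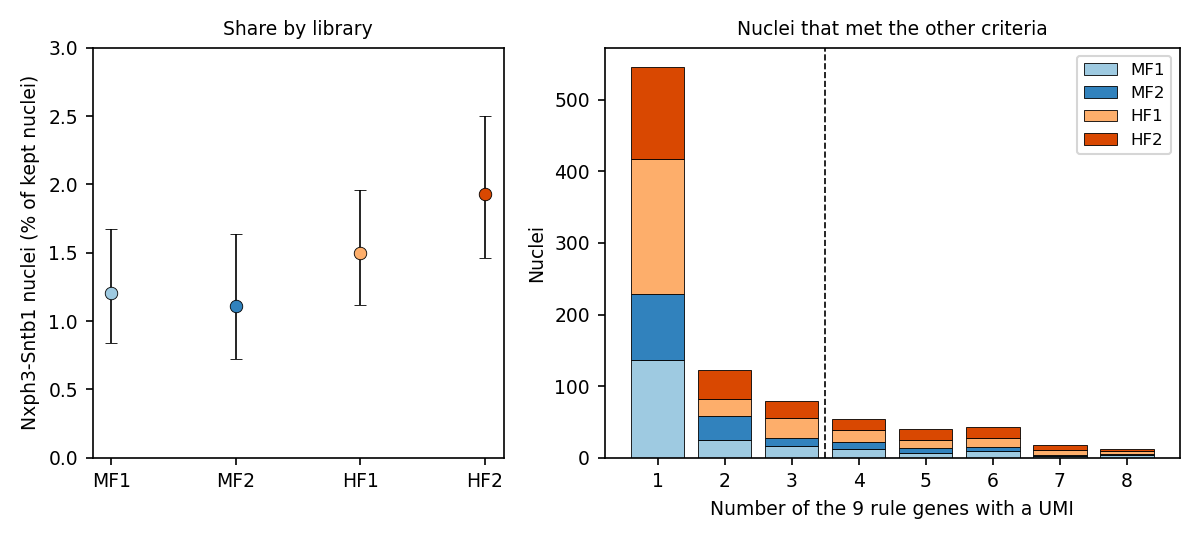
Left, share of Nxph3-Sntb1 nuclei among kept nuclei per library with 95% exact binomial intervals; right, number of nuclei by how many of the 9 rule genes had a UMI, stacked by library, with the rule's limit dashed. The shares run from 1.11% in MF2 to 1.93% in HF2, and the number of nuclei falls from 79 at 3 genes to 54 at 4 without a gap.

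The glutamatergic label rests on the rule itself, which asked for a transporter. Slc17a7, the main vesicular glutamate transporter of the forebrain, had a UMI in 97.6% of Nxph3-Sntb1 nuclei and 74.9% of other excitatory nuclei at their different depths. Its level was 360.5, 214, 182 and 174 CPM, against 346, 231, 230 and 223 CPM, and the ranges overlapped. Slc17a6, common in subcortical and subicular neurons, was at 44.3, 16.1, 45.5 and 37.5 CPM, against 18.7 to 29.3 CPM. Nxph3-Sntb1 nuclei had less RNA of Camk2a, the alpha subunit of the calcium/calmodulin kinase, at 227 to 263 CPM against 602 to 707 CPM.

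Markers of the CA fields and the dentate gyrus were low against the classes that they name. All 8 CA1 markers had a lower mean in Nxph3-Sntb1 nuclei than in CA1-like nuclei, as had all 10 CA3 markers against CA3-like nuclei and 9 of 10 granule markers against granule-like nuclei. The exception was Trhr, at 7.38 to 26.5 CPM against a mean of 3.07 CPM in granule-like nuclei. The classes themselves were named by these lists, from clusters whose leading genes held several of the markers. These counts of lower markers were thus in part fixed beforehand. Fibcd1, Wnt2, Gm10754 and Prox1 among the markers belong to the rule. Of those outside it, Man1a, a CA1 marker, had 94.9 to 160 CPM against a mean of 743 CPM in CA1-like nuclei. Trps1, a CA3 marker, had 58.9 to 205 CPM against a mean of 1675 CPM in CA3-like nuclei. Against other excitatory nuclei, which include granule-like nuclei, the picture was mixed. At least 2-fold lower in every library were 1 of the 4 CA1 markers that passed the level filter (Gm10754, of the rule), 1 of 3 CA2 markers (Ntf3), 0 of 6 CA3 markers and 6 of 6 granule markers, and in none of these lists was a gene at least 2-fold higher. The CA1 marker Pex5l had 835 to 1468 CPM against 806 to 1142 CPM, so the ranges overlapped. The CA3 markers Elavl2, at 192 to 297 CPM against 124 to 135 CPM, and Socs2, at 64.3 to 88.5 CPM against 39.9 to 46.8 CPM, lay above every reference library. Amigo2, a CA2 marker, did too, at 11.0 to 23.2 CPM against 4.28 to 6.94 CPM, with a mean of 23.9 CPM in CA3-like nuclei. For Drd2, the receptor gene that marks hilar mossy cells, 0 UMIs were found in all 4 libraries, which allows up to 3 UMIs per library. Other excitatory nuclei had only 0.200 to 0.520 CPM of Drd2, so these zeros say little. Of 6 hilar mossy markers 1 passed the level filter, Ajap1, and it was at least 2-fold lower in every library.

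Across all genes, 6402 had at least 20 CPM in the higher of the 2 sums in all 4 libraries. Of these, 172 (2.69%) were at least 2-fold higher in Nxph3-Sntb1 nuclei than in other excitatory nuclei in every library, on the log2(CPM + 5) scale, and 199 (3.11%) were at least 2-fold lower. With CA1-like and CA3-like nuclei as the reference, 160 of the 172 and 111 of the 199 remained. The scale understates the change of low genes. The genes that ranked highest by their smallest library ratio outside the rule, of which 19 are given here, are grouped by known role for description only. The largest such ratios among the 19 were those of Kcnh8 (log2 3.45), Alk (3.45), Cntn6 (3.42) and Kcnip1 (3.39). Among adhesion molecules, Cntn6, a contactin, had 1372, 996, 1155 and 1115 CPM against 65.9, 88.3, 78.1 and 87.6 CPM, a log2 ratio of 3.78 ± 0.37 (SD, n = 4). Cntn4, another contactin, had 3022 to 3692 CPM against 411 to 584 CPM. Cntnap4, a contactin-associated protein, had 554 to 752 CPM against 43.9 to 71.1 CPM. In all of these no library sum overlapped between Nxph3-Sntb1 nuclei and other excitatory nuclei. The rest of the main cluster, though, had 524 to 584 CPM of Cntnap4, overlapping Nxph3-Sntb1 nuclei. It had means of 519 CPM of Cntn6 and 1919 CPM of Cntn4. Inhibitory-like nuclei had a mean of 581 CPM of Cntnap4.

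Others act at the synapse. Nxph1, the paralogue of Nxph3 that also binds alpha-neurexins, had 226, 102, 180 and 250 CPM against 6.87 to 16.4 CPM. Inhibitory-like nuclei had more, with a mean of 2238 CPM, and against all other kept nuclei the mean log2 ratio of Nxph1 was -0.92. Cbln2, a cerebellin that links neurexins to postsynaptic delta receptors, had 59.0, 50.9, 39.4 and 45.2 CPM against 1.81 to 3.53 CPM. Grik1, a kainate receptor subunit, had 403, 362, 379 and 447 CPM against 30.3 to 48.5 CPM. It too was higher in inhibitory-like nuclei, at a mean of 1497 CPM, and its mean log2 ratio against all other kept nuclei was 0.85. Olfm3, an olfactomedin of the synapse, had 769 to 875 CPM against 81.2 to 99.2 CPM. Il1rapl2, an interleukin-1 receptor-like adhesion protein, had 963 to 1458 CPM against 148 to 222 CPM.

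Kcnh8, a voltage-gated potassium channel, had 186, 287, 230 and 217 CPM against 9.79 to 14.0 CPM, a log2 ratio of 3.81 ± 0.39. Kcnip1, an accessory protein of A-type potassium channels, had 252 to 405 CPM against 15.3 to 22.9 CPM. Its mean was 267 CPM in inhibitory-like nuclei and 221 CPM in an unnamed excitatory cluster led by Ndnf and Reln. Plcb4, a phospholipase C, had 242 to 283 CPM against 21.5 to 29.3 CPM, and astrocyte-like nuclei a mean of 330 CPM. Alk, a receptor tyrosine kinase, had 166 to 202 CPM against 6.59 to 11.3 CPM, with a mean of 346 CPM in inhibitory-like nuclei and a mean log2 ratio of 1.68 against all other kept nuclei. Sgcd, a sarcoglycan of the dystrophin complex that syntrophins also join, had 3589 to 4656 CPM against 383 to 563 CPM. The log2 ratios of the remaining 6 (Vwc2l, Klhl1, Abi3bp, Arap2, Etl4 and Lcp1) had means from 2.65 to 3.35. For Etl4 the rest of the main cluster had 2855 to 3265 CPM, overlapping the 2719 to 4355 CPM of Nxph3-Sntb1 nuclei.

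Among the 10 genes that ranked lowest, Zbtb20, a zinc-finger repressor needed for hippocampal neuron identity, had 474, 139, 423 and 677 CPM against 3313 to 3855 CPM, a log2 ratio of -3.23 ± 0.96. MF2 was lowest and HF2 highest, and all 4 lay below every library sum of the other excitatory nuclei. Within that set Zbtb20 was not high throughout. Its mean was 383 CPM in an unnamed cluster led by 9330185C12Rik and Fn1 and 715 CPM in one led by Npsr1, against 428 CPM in Nxph3-Sntb1 nuclei. Il1rap had 13.4 to 49.2 CPM against 307 to 373 CPM, Tafa1 127 to 232 CPM against 1508 to 1775 CPM, and Ntng2, a netrin-G of axon guidance, 0 to 6.62 CPM against 61.6 to 67.3 CPM. Trpc5, a cation channel, had 10.7 to 35.3 CPM against 182 to 212 CPM. The other members of the 10 were Syt17, Ptpro, Fstl4 and the non-coding 4930509J09Rik and Gm20754.

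**Figure D3:**
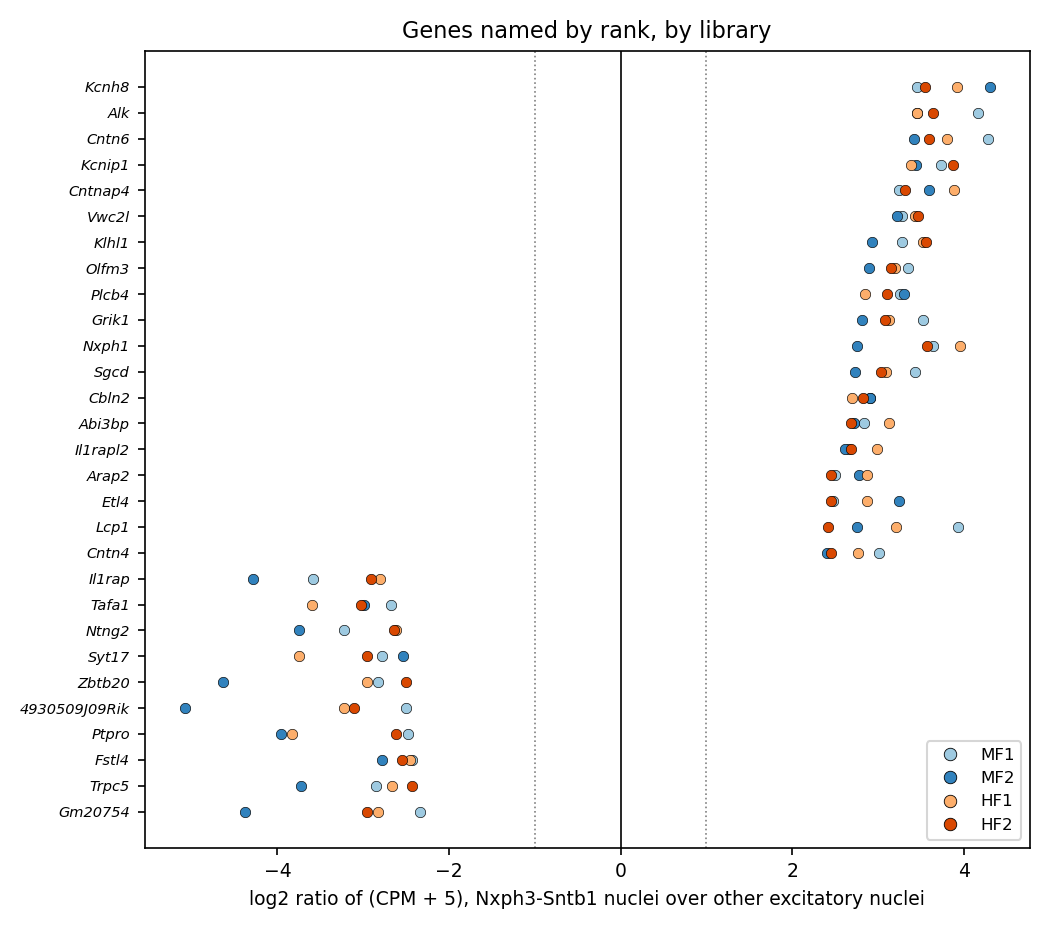
Log2 ratio of (CPM + 5) between Nxph3-Sntb1 nuclei and other excitatory nuclei for 19 of the 20 genes ranked highest and the 10 ranked lowest, 1 point per library; dotted lines mark 2-fold. Each library of the 19 genes lies at 2.40 or more, and MF2 often lies farthest left among the 10 lower genes, as for Zbtb20 at -4.63.

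Several markers of layer 6 corticothalamic neurons were high. Of 6 layer 6 corticothalamic markers 4 passed the level filter, 3 were at least 2-fold higher and 0 lower, with a median log2 ratio of 2.24 against -0.05 over all genes described. Foxp2, a forkhead factor, had 84.3, 268, 196 and 146 CPM against 13.2 to 28.9 CPM. Tle4, a corepressor, had 629 to 802 CPM against 137 to 159 CPM, and Hs3st4, a heparan sulfate sulfotransferase, 2702 to 3806 CPM against 573 to 871 CPM. The rest of the main cluster had like means, of 199 CPM for Foxp2, 659 CPM for Tle4 and 3053 CPM for Hs3st4, against 173, 696 and 3292 CPM in Nxph3-Sntb1 nuclei. CA3-like nuclei had a mean of 1995 CPM of Hs3st4. Of the same list, Syt6 did not reach the level filter, at 2.11 to 10.7 CPM against 0.780 to 1.60 CPM, and neither did Rprm in HF2, at 13.2 to 46.4 CPM against 9.12 to 11.2 CPM, but both lay above every reference library. Crym lay below, at 56.2 to 65.4 CPM against 78.2 to 92.8 CPM.

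Other cortical lists were mixed. Fezf2, a factor of subcerebral projection neurons, had 59.0 to 90.6 CPM against 13.1 to 18.2 CPM. Within that reference, the unnamed cluster led by 9330185C12Rik and Fn1 had a mean of 73.8 CPM, against 69.8 CPM in Nxph3-Sntb1 nuclei. Fezf2 was 1 of 4 subcerebral markers at least 2-fold higher, with a median log2 ratio of 0.56. Of the other 3, Parm1 lay above every reference library, at 99.1 to 126 CPM against 49.0 to 71.7 CPM, Bcl11b overlapped, at 186 to 292 CPM against 179 to 224 CPM, and Pou3f1 had 33.7, 5.36, 11.1 and 7.72 CPM against 20.9 to 35.1 CPM, below every reference library in MF2, HF1 and HF2. Rorb, a nuclear receptor of layer 4, had 110 to 268 CPM against 19.8 to 28.2 CPM, with a mean of 1296 CPM in astrocyte-like nuclei. Tshz2, of near-projecting neurons, had 1363 to 1769 CPM against 290 to 372 CPM. Of 5 near-projecting markers 2 passed the level filter, and only Tshz2 was at least 2-fold higher. Slc17a8 of that list was at 0 in MF1, MF2 and HF2. In the layer 2 to 4 list of Rorb, Cux2 had 0 to 15.4 CPM against 18.9 to 26.8 CPM and Rasgrf2 44.3 to 67.0 CPM against 96.2 to 117 CPM. Of the layer 5 or 6 intratelencephalic markers, 4 passed the level filter. Deptor was higher, at 40.1 to 88.4 CPM against 13.9 to 16.4 CPM, and Synpr lower, at 23.2 to 77.2 CPM against 327 to 390 CPM. The rest of the main cluster had 53.5 to 66.0 CPM of Deptor and 89.7 to 185 CPM of Synpr. Of the layer 6b list, 1 of 5 genes passed the level filter, Nxph3, a gene of the rule. Ccn2, a layer 6b marker below that filter in MF2 and HF2, had 37.9, 2.68, 23.4 and 6.62 CPM against 2.60, 0.520, 1.87 and 1.04 CPM, above every reference library. The rest of the main cluster had a mean of 24.1 CPM of Ccn2. Moxd1 lay below every reference library, at 0 to 4.22 CPM against 5.37 to 6.56 CPM, and Nxph4 and Cplx3 were at 0 in MF2, HF1 and HF2. Of the 7 layer 2 to 4 markers 3 passed the level filter, and Rspo1 was at 0 in all 4 libraries. Of 5 subiculum markers 2 passed the level filter and 0 were at least 2-fold higher in every library. Among them Fn1, fibronectin, had 82.2, 107, 62.7 and 28.7 CPM against 14.1 to 25.5 CPM. It was above every reference library but short of 2-fold in HF2. Within that reference, the unnamed cluster led by 9330185C12Rik and Fn1 had 124 to 230 CPM of Fn1. In every library this was above Nxph3-Sntb1 nuclei. Ly6g6e, below the level filter in MF2 and HF2, had 35.8, 5.36, 28.3 and 8.82 CPM against 0.433 to 1.13 CPM, also above every reference library, while Teddm3 was at 0 in all but HF1. The counts do not give these nuclei a place in the tissue, which was not measured.

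The rule genes differed in how far they were confined to the main cluster. Outside the main cluster, Sntb1 had a mean of at most 10.1 CPM in any excitatory cluster, against 114 CPM in the main cluster without the Nxph3-Sntb1 nuclei. Rai14, at 169 CPM there, had means of 23.1 and 20.4 CPM in 2 clusters of excitatory neurons. Beyond excitatory clusters, Sntb1 had means of 30.6 CPM in astrocyte-like and 23.5 CPM in inhibitory-like nuclei. Pamr1 had a mean of 65.4 CPM in astrocyte-like nuclei, against 64.6 CPM in the rest of the main cluster. Adgrd1 had 27.7 CPM in the main cluster and 29.4 CPM in an unnamed cluster led by Ndnf and Reln, where it was at 0 in MF1 and HF2. Tshz2, outside the rule, had a mean of 1622 CPM in an unnamed cluster led by Npsr1 and 638 CPM in another led by 9330185C12Rik and Fn1. Vwc2l, at 1033 to 1218 CPM in Nxph3-Sntb1 nuclei, also had 536 CPM in the Npsr1 cluster. Over all 28 clusters of kept nuclei, genes whose levels followed the mean of the 9 most closely included Fstl1 (Spearman 0.855), Hdac4 (0.770), Clybl (0.754) and Rbms3 (0.748). These are correlations of cluster means that share libraries and depth, and of these 4 only Rbms3 was also over 2-fold higher in every library, at 278 to 402 CPM against 50.5 to 71.2 CPM. Inhibitory-like nuclei had more Rbms3, with a mean of 876 CPM.

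Receptor families were described in the same way, beside 2.69% higher and 3.11% lower of all genes described, with a median log2 ratio of -0.05. Of 15 ionotropic glutamate receptor genes that passed the level filter, 3 were at least 2-fold higher in every library (Grik1, Grik3 and Grin3a) and 2 lower (Gria1 and Grin2a), with a median log2 ratio of -0.27. Grik3, a kainate subunit, had 289 to 362 CPM against 43.4 to 68.9 CPM, and Gria1, an AMPA subunit, 544 to 845 CPM against 1845 to 2293 CPM. Metabotropic receptors leaned higher, with 3 of 6 at least 2-fold higher, 0 lower and a median of 1.07. Grm8, a presynaptic receptor, had 1088 to 1405 CPM against 206 to 290 CPM, Grm3 440 to 576 CPM against 80.5 to 122 CPM (astrocyte-like nuclei, mean 1549 CPM), and Grm4 20.9 to 46.3 CPM against 6.63 to 10.8 CPM. Of 10 GABA-A subunits, Gabra3 and Gabrg3 were higher and Gabra2 was lower, at 88.4 to 160 CPM against 550 to 718 CPM. Of 10 neuromodulator receptors 4 were higher and 0 lower. Htr2c had 292 to 552 CPM against 79.9 to 104 CPM and the orexin receptor Hcrtr2 60.7 to 102 CPM against 11.8 to 16.1 CPM. Chrm2 and Htr1f joined them. Against the rest of the main cluster the mean log2 ratios of the higher receptor genes were smaller. Grik3 had -0.12 and Htr1f, lower in every library, -0.25. Grm3, Hcrtr2, Gabra3 and Grm8 had 0.13, 0.23, 0.24 and 0.28. Grm4, Grin3a and Gabrg3 had 0.70, 0.70 and 0.86, and Htr2c, Grik1 and Chrm2 had 1.19, 1.22 and 1.49.

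Among 35 neuronal transcription factors, 6 were higher (Fezf2, Foxp2, Tle4, Sox5, Rorb and Tshz2) and 5 lower (Mef2c, Meis2, Zbtb20, Bhlhe22 and Nfia). Axon guidance leaned lower, with 2 of 31 genes higher (Sema5b and Efna5) and 8 lower, among them Sema3c, Epha4 and Ntng2, and a median of -0.52. Over all genes described 2.69% were higher and 3.11% lower, with a median of -0.05. Of the 16 genes of the neurexin family and its ligands, 4 were higher (Nxph1, Nxph3, Lrrtm3 and Cbln2) and 1 lower (Clstn2), and of 16 of the dystrophin complex, 3 were higher (Sntb1, Sgcd and Sgcz) and 2 lower (Sntb2 and Sntg1). Nxph3 and Sntb1 are genes of the rule, so their places in these counts were given by it. Sntb2, the close paralogue of Sntb1, was at 19.7 to 56.9 CPM against 123 to 147 CPM. Of 7 neuropeptide and growth factor genes 0 were higher and 4 lower, including Cck at 55.2 to 112 CPM against 163 to 341 CPM and Bdnf at 8.04 to 23.2 CPM against 64.2 to 91.3 CPM. Cadherins split, with Cdh11, Cdh18 and Cdh22 higher and 4 lower, and the 9 folate and one-carbon genes that could be described gave 0 higher and 1 lower (Ahcyl2).

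Of 26 potassium and HCN channel genes 2 were higher and 0 lower, with a median log2 ratio of 0.02. Over all genes described 2.69% were higher and 3.11% lower. Of 18 sodium and calcium channel genes 1 was higher and 3 were lower, with a median of -0.31. There were 2 higher and 0 lower of 9 adhesion G protein-coupled receptors (Adgrd1, of the rule, among the higher) and 0 either way of 5 immediate early genes. The other higher receptor, Adgra1, was below the rest of the main cluster in every library, with a mean log2 ratio of -0.51. Against the same nuclei the higher channel genes Kcnip1, Kcnmb4 and Cacnb4 had 1.34, -0.03 and 0.07. Of 7 astrocyte markers 1 passed the level filter and was at least 2-fold higher, the glutamate transporter Slc1a2, at 857 to 1119 CPM against 212 to 228 CPM. The 7 summed to 935 to 1240 CPM against 252 to 261 CPM. Aqp4, the defining astrocyte channel, was at 2.68 to 11.0 CPM against 2.90 to 4.31 CPM, Gfap at 0 to 8.04 CPM against 4.66 to 9.69 CPM, and Gja1 at 5.36 to 19.0 CPM against 2.33 to 6.37 CPM. Slc1a3 had 2.68 to 80.1 CPM against 16.6 to 22.4 CPM. The part of astrocyte RNA in the Slc1a2 value was not tested.

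The population was not uniform. Clustered on their own, the 168 nuclei formed 4 groups, of which 3 are called here by a leading gene as a label only, and since the same RNA made the groups these differences are a description. The Greb1 group (40 nuclei) was led by Greb1 and Ly6g6e and had 143 CPM of Nxph3. The Abi3bp group (27 nuclei) had 323 CPM of Abi3bp, 722 CPM of Nxph1 and 648 CPM of Rorb, against at most 45.5, 181 and 227 CPM in the other groups. The Tmem132d group (49 nuclei) had 608 CPM of Tmem132d and 1009 CPM of Thsd7b. Its Dpp10, a subunit of A-type potassium channels, reached 16430 CPM, against 2166 in the group of 52 nuclei described next, 1346 in the Abi3bp group and 6.82 in the Greb1 group. Kcnh8 ran the other way, with 664 CPM in the Abi3bp group and 2.93 CPM in the Tmem132d group. Sntb1 was found in all groups, from 151 to 487 CPM, and Crybg1 mostly in the first 2, at 100.02 and 90.5 CPM against 2.93 and 8.88 CPM.

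The group of 52 nuclei differed in other ways. It held 26 of the 56 HF2 nuclei, against 9, 5 and 12 from MF1, MF2 and HF1, and had the highest median depth, 18877 UMIs. It also held 14 of the 16 nuclei over the doublet score and 7 of the 10 in mixed clusters, which the same score defined. Its leading genes by summed RNA included St18 and Tcf7l2, which mark maturing oligodendrocytes, and the non-coding Gm32647. Few nuclei carried 2 of these, since UMIs of Gm32647 were found in 1, 0, 2 and 4 nuclei of MF1, MF2, HF1 and HF2, and those of St18 in 1, 0, 4 and 11. The summed level of the 7 oligodendrocyte markers was 848 CPM in this group and 209 to 273 CPM in the other 3, and that of the 7 oligodendrocyte progenitor markers was 353 CPM against 68.2 to 145 CPM. The part that RNA of a second cell plays in this group was not tested. Without nuclei over the doublet score, all of the 20 higher and 10 lower genes stayed at least 2-fold apart in every library.

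Open chromatin, which the rule did not use, was compared over 148893 regions with edgeR's quasi-likelihood test on library sums, with library as a block and Benjamini-Hochberg adjustment. At an adjusted p under 0.05, 3818 regions (2.56%) were more open in Nxph3-Sntb1 nuclei than in other excitatory nuclei and 19891 (13.4%) less open. The median log2 fold change of all regions tested was -0.55. Regions were peaks of whole libraries, in which Nxph3-Sntb1 nuclei were 1.11 to 1.93% of kept nuclei. A region could also enter the test on the counts of other excitatory nuclei alone. How much of the split goes with that shift or with this choice of regions was not tested. With RLE in place of TMM scaling 3602 regions were more and 22287 less open, and in DESeq2 5172 and 21073. The total of 23709 regions fell to between 10951 (without HF1) and 15083 (without MF1) with 1 library left out. Regions within 1 kb of a protein-coding start made up 8.74% of those tested, 6.26% of those more open and 1.90% of those less open. Against the other 231 nuclei of the main cluster only 17 of 30938 regions (0.0549%) passed, 7 higher and 10 lower, with 3028 at an unadjusted p under 0.05. That smaller reference has less power, so the count does not show that the 2 sets are alike.

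The rule genes were more open than most. These nuclei were chosen by RNA of the same genes, so openness there is not independent of the choice. Within the 9 gene bodies 18 of 101 regions (17.8%) were more open, against 2.56% of all regions, and 7 (6.93%) less open, against 13.4%. The higher regions lay in 7 of the 9 genes, all but Rai14 and Clic5. The region nearest to the start of Nxph3 (chr11:95514193-95515096, mm10, across coding sequence) had 26.1, 32.4, 41.9 and 32.8 CPM of ATAC counts, against 8.56 to 8.98 in other excitatory nuclei. All 4 libraries lay above all reference libraries, with a log2 fold change of 1.70 (SE 0.26, adjusted p = 3.38e-08). At the start of Sntb1 (chr15:55906145-55907149, coding exon) it was 17.0, 29.2, 17.2 and 10.7 against 3.37 to 4.77, a log2 fold change of 1.99 (SE 0.42, adjusted p = 9.79e-05). The start regions of Cwh43 (chr5:73405687-73406572), Skap1 (chr11:96465378-96466335, intron) and Crybg1 (chr10:44148568-44149525) passed too, with log2 fold changes of 1.31, 1.12 and 1.97. Against the rest of the main cluster, a comparison added after seeing the data, the log2 fold changes at the starts of Nxph3, Skap1 and Rai14 were -0.001, -0.31 and -0.34.

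Other starts did not pass. The start region of Rai14 (chr15:10714168-10715217) had 8.11 to 11.4 CPM against 3.96 to 5.66, without overlap, but its adjusted p was 0.236 in edgeR's test. Pamr1 missed at its start (adjusted p = 0.0795) while an intronic region 29543 bp from the start (chr2:102579095-102580016) passed, with a log2 fold change of 1.87 (SE 0.44, adjusted p = 0.00066), at 13.0, 17.8, 25.7 and 9.16 against 3.25 to 4.06, with a mean of 0 in CA3-like nuclei. At Adgrd1 an intronic region (chr5:129113489-129114411) passed, at 3.91, 22.7, 41.0 and 15.3 against 7.58 to 9.48, but MF1 lay below all reference libraries. In Rai14 the nearest region that passed was less open, with 0 counts in 3 libraries and 2 in HF1. The 20 genes ranked higher in RNA of the same nuclei had 29 of 363 regions (7.99%) more open, in 13 of the 20, and 39 (10.7%) less open. The 9 of the 10 lower genes with 1 annotated position had 0 of 199 regions more open and 64 (32.2%) less open. Of these 34 were among the 74 regions of Zbtb20.

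**Figure D4:**
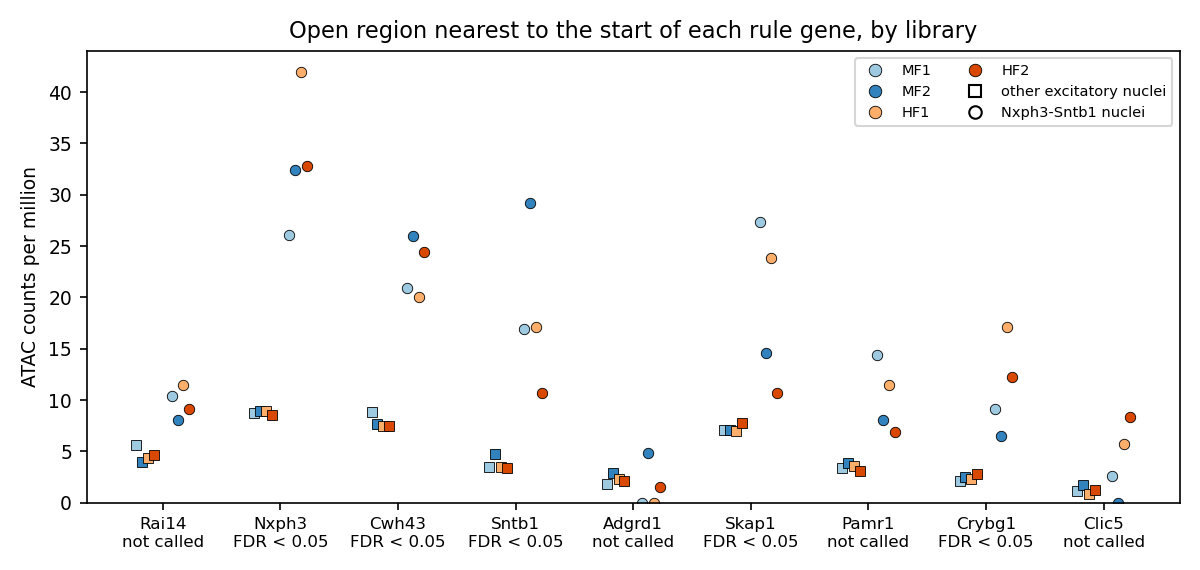
ATAC level (CPM) in the region nearest to the start of each rule gene, for Nxph3-Sntb1 nuclei (circles) and other excitatory nuclei (squares), 1 point per library. At Nxph3 the circles lie from 26.1 to 41.9 and the squares from 8.56 to 8.98, and 5 of the 9 regions passed an adjusted p of 0.05.

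Of the 10 more open regions with the smallest p, 8 lay between genes, 1 in an intron of Nek11 and 1 across a coding exon of Scg3. The region chr8:102593569-102594539, 191588 bp from the start of the cadherin gene Cdh11, had 27.4, 30.8, 30.5 and 27.5 against 1.63 to 2.13, a log2 fold change of 3.75 (SE 0.37, adjusted p = 1.55e-20). A region near Kcna6 (chr6:126773676-126774579) had 28.7, 53.5, 42.9 and 55.7 against 4.73 to 6.68. Its mean in oligodendrocyte-like nuclei was 21.8, so it was not low in every other cell type. The nearest gene is given for position only.

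The reference sequence (GRCm38, plus strand) of the 200 bases at the centre of 4 such regions is shown, 2 inside genes of the rule and 2 between genes, all clear of annotated exons. Capitals mark a match to 1 of 5 short motifs searched on both strands.
Pamr1 intron, chr2:102579456-102579655: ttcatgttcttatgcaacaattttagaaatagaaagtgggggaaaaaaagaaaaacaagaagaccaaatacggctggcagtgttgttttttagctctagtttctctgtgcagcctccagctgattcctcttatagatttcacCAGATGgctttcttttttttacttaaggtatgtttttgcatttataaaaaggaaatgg
Skap1 intron, chr11:96465757-96465956: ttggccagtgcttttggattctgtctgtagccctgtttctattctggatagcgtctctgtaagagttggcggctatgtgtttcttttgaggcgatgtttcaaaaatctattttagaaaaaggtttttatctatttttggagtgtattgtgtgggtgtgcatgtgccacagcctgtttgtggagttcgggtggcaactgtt
Between genes near Kcna6, chr6:126774028-126774227: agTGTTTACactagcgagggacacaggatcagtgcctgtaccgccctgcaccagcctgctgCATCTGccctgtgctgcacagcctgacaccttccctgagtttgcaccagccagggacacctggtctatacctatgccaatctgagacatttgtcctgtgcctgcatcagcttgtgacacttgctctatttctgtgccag
Between genes, toward Cdh11, chr8:102593955-102594154: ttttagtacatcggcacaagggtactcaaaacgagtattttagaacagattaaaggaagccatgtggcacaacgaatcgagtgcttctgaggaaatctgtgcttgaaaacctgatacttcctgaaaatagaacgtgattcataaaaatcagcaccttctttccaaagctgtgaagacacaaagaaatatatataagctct
The Pamr1 window held 1 E-box of the NeuroD kind (CAGATG), and the Kcna6 window 1 E-box and 1 forkhead motif (GTAAACA), both on the minus strand and so shown reverse complemented. No motif was found in the windows of Skap1 and Cdh11, which says only that these letters are not there.

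Over all windows of this length, CAGATG was present in 28.5% of tested regions, 35.6% of those more open and 39.4% of those less open, so both directions lay above the whole. GTAAACA was in 2.52, 1.73 and 2.97%, TAGGTCA, bound by ROR receptors, in 0.949, 0.917 and 0.674%, and the AP-1 motif TGAGTCA in 7.07, 6.995 and 7.13%. The MEF2 motif was in 0.232, 0.681 and 0.171%, or 26 of 3817 windows more open in Nxph3-Sntb1 nuclei. No motif lies within another, but the ends of some share letters, so a stretch can count for more than 1. These shares are a description, and a match is not a binding site.

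Between diets, no gene passed in Nxph3-Sntb1 nuclei: 0 of 7855 (0.0%) at an adjusted p under 0.05 and 1.2-fold in edgeR's quasi-likelihood test, and 0 in DESeq2. At an unadjusted p under 0.05 there were 244 in edgeR and 53 in DESeq2. The diets did not overlap in CPM for 2321 genes (29.5%), 976 of them higher in HF. With the replicate number as a block, 5 genes passed (Erbb4, St18, Gm32647, Hba-a2 and Zfp804b). The 9 rule genes, whose levels are held in part by the rule, are given by diet as a description only. Their median log2 fold change (HF over MF) was 0.09 against -0.0043 over all genes, and that of Nxph3 was -0.87, with MF1 far above the other 3 libraries. Of 12 folate and one-carbon genes tested 0 passed, also without adjustment, and their median was 0.08. The 80 ribosomal protein genes tested had a median of -0.17, with 0 passing.

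Among the 10 genes of smallest p whose diets did not overlap were Gm32647, Hba-a2, Cnp, Pdgfc, Zfp804b, Trpm3, St18, Hba-a1 and Erbb4, with adjusted p from 0.785 to 0.920. Pdgfc, a platelet-derived growth factor, had 118 and 137 CPM in MF and 45.5 and 52.9 CPM in HF, with a log2 fold change of -1.32 (SE 0.27, adjusted p = 0.785). Trpm3, a cation channel, had 120 and 102 CPM in MF and 220 and 243 CPM in HF, a log2 fold change of 1.10 (SE 0.23), but in HF1 96 of its 179 UMIs came from 1 nucleus. Haemoglobin RNA (Hba-a1 and Hba-a2, near-identical genes whose reads cannot be told apart with certainty) was high in MF1, at 186 CPM for Hba-a2 against 15.4 to 42.9 CPM in the others. In other excitatory nuclei Hba-a2 was high in the first library of each diet, at 296 CPM in MF1 and 165 CPM in HF1. All 7 oligodendrocyte markers summed to 209, 161, 326 and 892 CPM in Nxph3-Sntb1 nuclei, against 271, 258, 385 and 234 CPM in other excitatory nuclei. Of these markers 5 of 5 tested were higher in HF without overlap, as were 976 of all 7855 genes tested. In MF2, Mog, Mag and Cldn11 were at 0. The 7 oligodendrocyte progenitor markers summed to 131, 112 and 271, 228 CPM in MF and HF, against 51.7 to 62.6 CPM in other excitatory nuclei, and 3 of 3 tested were higher in HF without overlap, with a median log2 fold change of 1.49. The part of these cells' RNA in the diet values was not tested.

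Whether the diet difference itself differed between Nxph3-Sntb1 nuclei and other excitatory nuclei was tested with an interaction term and library as a block. Of 15151 genes 12 (0.0792%) passed an adjusted p of 0.05 and 1.2-fold, 9 with a higher and 3 with a lower HF response. Of the 12, 11 are given here: Erbb4, Gm32647, St18, Dock10, Zfp804b, Sox2ot, 9630013A20Rik and Mbp, and Pdgfc, Hba-a2 and Plpp3 for the lower ones. DESeq2 gave 0 (120 at an unadjusted p under 0.05, against 562 in edgeR), and edgeR without the library block also gave 0. Erbb4, the neuregulin receptor, had means of 8077 CPM in inhibitory-like and 6279 CPM in oligodendrocyte-like nuclei. It had 10.5, 53.6, 97.2 and 472 CPM in Nxph3-Sntb1 nuclei against 15.1 to 33.5 CPM, with a difference in log2 response of 3.95 (SE 0.36, adjusted p = 1.09e-14).

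Several of these values rested on few nuclei. Of the 428 Erbb4 UMIs in HF2, 132 came from 1 nucleus and 322 from 3, and 378 from nuclei over the doublet score. Only 57 of these 428 UMIs lay in the main cluster. For Gm32647, 282 of 313 UMIs in HF2 and 79 of 81 in HF1 came from 1 nucleus each, and the main cluster held 29 and 2 of them. Gm32647 was also among the leading genes of CA3-like nuclei, and other excitatory nuclei had 201 to 330 CPM of it. For Mbp, a major myelin gene, 3 nuclei gave 225 of 297 UMIs in HF2. Zfp804b was spread wider, over 12 HF1 and 7 HF2 nuclei, yet 3 nuclei still gave 50 of 75 and 26 of 32 UMIs. Of the genes with a lower HF response, UMIs of Pdgfc were found in 18, 11, 15 and 22 nuclei, of Hba-a2 in 26, 12, 12 and 12 and of Plpp3 in 10, 9, 10 and 12. The 3 nuclei with most UMIs gave 60.8% of Pdgfc in MF2, 63.6% of Plpp3 in MF1 and 38.6% of Hba-a2 in MF1. Without HF2, 13 genes passed, of which 5 were among the 12, and without nuclei over the doublet score 9 passed, of which 7 were. Hba-a2, Plpp3, Mbp and 9630013A20Rik were among those lost. With CA1-like and CA3-like nuclei as the reference only Erbb4 passed.

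**Figure D5:**
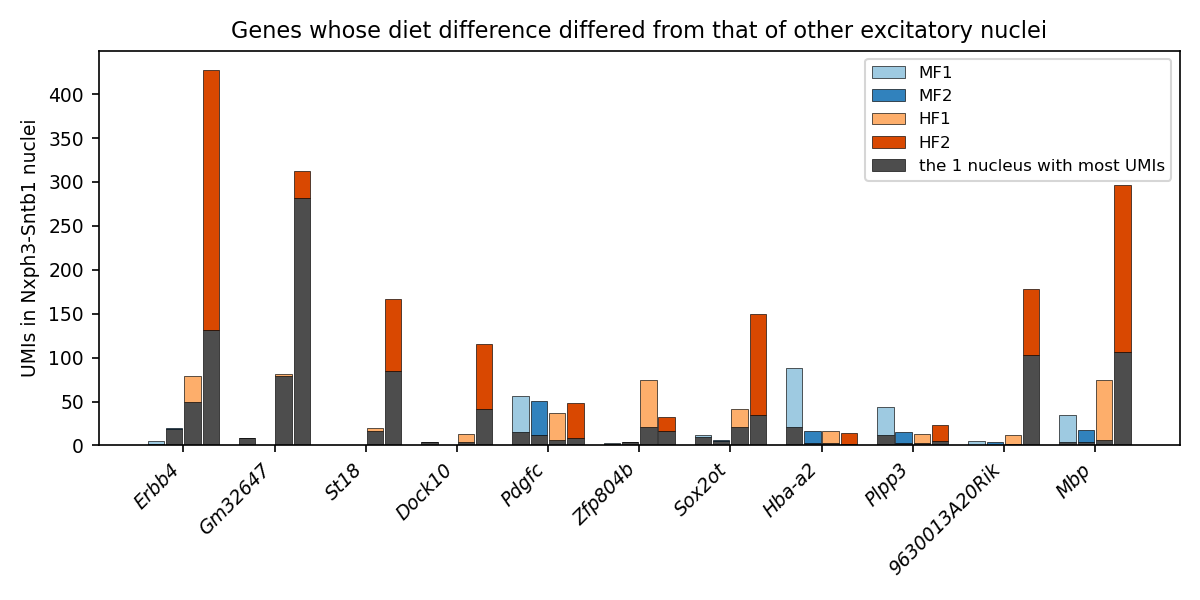
UMIs of 11 of the 12 genes with a different diet response, summed over Nxph3-Sntb1 nuclei of each library; the dark part of a bar is the single nucleus with most UMIs. For Gm32647 in HF2 that nucleus gave 282 of 313 UMIs, and for Pdgfc 8 of 48.

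Open chromatin of Nxph3-Sntb1 nuclei gave no call between diets in the main test either. Of 26197 regions 0 (0.0%) passed an adjusted p of 0.05 in edgeR and 0 in DESeq2, with 968 and 396 at an unadjusted p under 0.05. With the replicate number as a block, 2 regions passed. A count of 0 does not show that no region differed.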

How the data were processed

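Single-nucleus RNA and ATAC counts of 4 libraries were used as the authors deposited them: whole-number counts per gene and per peak, made with Cell Ranger ARC 2.0.1 on mm10, not normalized. Their own cell types were not used here. A nucleus was kept if its ATAC counts lay between 1000 and 70000, less than 2% of its UMIs were mitochondrial and it had 500 to 7000 genes detected. Peaks of the libraries were merged, and the 154785 of 253748 regions with a peak in all 4 were used (annotation GENCODE M21, GRCm38). From 81.1 to 83.1% of ATAC values were even, so each fragment was mostly counted at both ends.

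The members and the gene lists were chosen with earlier results of these data known. Nuclei were clustered with scanpy 1.11.5 (Leiden), and which clusters count as excitatory was set after the clusters were seen. Clusters were named by the marker lists, or called mixed by their median doublet score. Scrublet scores were computed, doublets were kept, and results are given without scores over 0.05 where this bears on them. Counts were summed per library. Tests used edgeR 4.0.16 (TMM, quasi-likelihood, Benjamini-Hochberg adjustment) in R 4.3.3, with DESeq2 1.42.0 as an alternative, and were tested on simulated data. RNA ratios used a pseudocount of 5 CPM. Named genes were the rule genes, the first 20 higher and 10 lower by smallest library ratio (at least 20 CPM), listed genes at least 2-fold apart in all 4 libraries (up to 4 of a list), the 10 diet genes of smallest p without overlap and the 5 most similar genes. Other genes, such as markers at low levels and the leading genes of the groups, were chosen after their values were seen. Regions were those nearest to rule gene starts and the 10 of smallest p. A few genes that these rules name are not reported here.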

Additional observations from a re-analysis of the deposited data

Results flagged for a closer look

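The diet response of 12 genes differed between Nxph3-Sntb1 nuclei and other excitatory nuclei, 11 of which are given here, by the interaction term in edgeR's quasi-likelihood test. Each value is the log2 HF over MF response in Nxph3-Sntb1 nuclei minus that in other excitatory nuclei. St18 had 6.11, Gm32647 4.07, Erbb4 3.95 and Dock10 3.61. Of the others with a higher HF response, 9630013A20Rik had 2.76, Zfp804b 2.72, Sox2ot 2.23 and Mbp 1.42. The 3 with a lower HF response were Plpp3 at -1.89, Hba-a2 at -1.85 and Pdgfc at -1.57. St18, Gm32647 and Dock10 had 0 UMIs in MF2, so their fitted differences depend on the prior count and are no bound. Of the 167 St18 UMIs in HF2, 143 lay in nuclei over the doublet score, as did 166 of 178 of 9630013A20Rik and 253 of 297 of Mbp, while for Pdgfc it was 16 of 48 and for Plpp3 13 of 23 (21 of 44 in MF1). Without those nuclei Hba-a2, Plpp3, Mbp and 9630013A20Rik no longer passed, while St18, Erbb4, Gm32647, Dock10, Zfp804b, Sox2ot and Pdgfc still did.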

How the results depend on the processing

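With only 2 libraries per diet, counts of calls moved with single libraries. The difference in share (HF minus MF) was -0.129 points after thinning to 3000 UMIs, and 0.338 to 0.774 points with a library left out. Diet genes numbered 42 without the low-count filter and 5 to 26 with a library left out (5 without HF2, 26 without MF2). Genes with a different diet response numbered 0 in DESeq2, 0 without the library block, 37 against all other kept nuclei, 1 against CA1-like and CA3-like nuclei, and 13 to 43 with a library left out (43 without MF1). Regions that differed from other excitatory nuclei numbered 10951 to 15083 with a library left out (10951 without HF1) and 17 against the rest of the main cluster, and fewer libraries or nuclei entered those fits. Diet regions numbered 2 to 24 with a library left out (24 without MF2). Genes at least 2-fold higher numbered 292 against CA1-like and CA3-like nuclei. The comparisons with the main cluster, its members, or the CA1-like and CA3-like nuclei were chosen after seeing the data. Against the rest of the main cluster, the start regions of Rai14, Nxph3 and Skap1 changed sign, at -0.34, -0.001 and -0.31. The cause was not tested for the other moves.

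With the replicate number as a block, 5 genes (Erbb4, St18, Gm32647, Hba-a2 and Zfp804b) and 2 regions passed between diets. The labels tie the numbers to no litter or batch, and same-numbered libraries deviated together with a correlation of 0.0849 over genes and -0.0442 over regions in Nxph3-Sntb1 nuclei, and 0.568 and 0.392 in other excitatory nuclei. With 2 pairs this was not taken as a pairing. Over the named items and all alternatives, 883 RNA ratios moved by no more than 1 SD between libraries, 271 by more and 3 changed sign. Those were Maml2, Nxph1 against all other kept nuclei, at -0.92, and Adarb2 against CA1-like and CA3-like nuclei, at 0.92. Against the latter the RNA log2 ratio of Maml2 was 0.0213. Of the diet fold changes 86 kept their side of the threshold and 32 passed it. Of the region values 321 kept direction and call, 31 lost the call, 6 gained it and the 3 above reversed, and 83 diet response values kept the call while 61 lost it.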
